A study of Mus musculus with 9 samples.

Results

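Mitochondrial complex I genes of the nucleus were examined in the hearts of mouse embryos that carry a point mutation of *Ctcf*, which encodes the zinc-finger factor that anchors chromatin loops. All gene symbols made of Nduf, a letter code (a, b, c, s, v, ab or af) and a number were taken, which gave 44 of the 24571 symbols used. By their roles, 36 were subunits of complex I, 7 (*Ndufaf1* to *Ndufaf7*) were assembly factors, and 1 (*Ndufa4*) has since been assigned to cytochrome c oxidase. RNA sequencing of heart tissue at E18.5, shortly before birth, gave 9 libraries, 3 per genotype, from C57BL/6N embryos of the CRISPR/Cas9-edited R567W line, in which arginine is replaced by tryptophan. Wild-type embryos carried no mutant allele, heterozygous embryos carried 1 (Ctcf +/R567W) and homozygous embryos carried 2 (Ctcf R567W/R567W). The mutation is present in every cell of the embryo, not only in the heart. RNA was captured on beads for mRNA, and the methods have each heart collected in its own tube, but no label says that the 3 libraries of a group came from separate litters. The p-values below therefore measure the spread between these libraries.

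Complex I, or NADH dehydrogenase, passes electrons from NADH to ubiquinone and pumps protons across the inner mitochondrial membrane, and the beating heart draws most of its ATP from the respiratory chain that it feeds. An L-shaped enzyme, it has a matrix arm that holds the flavin and the iron-sulphur clusters and a membrane arm that moves the protons. Core subunits carry out the catalysis, those of the membrane arm being encoded by mitochondrial DNA, while accessory subunits surround and stabilise the core. Assembly factors help to join the modules and then leave, so they are not part of the finished enzyme.

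The members lie on 16 chromosomes, 2 of them (*Ndufa1* and *Ndufb11*) on the X chromosome, and their promoters differ. A RefSeq window from 250 bases before to 50 bases after the transcription start was found for 39 of the 44 members. The motif GCGCANGCG of NRF1, a factor known for binding genes of mitochondrial proteins, was present on either strand in 10 of the 39 windows (25.6%), against 7.03% of the windows of 27025 genes. The motif AAGATGGCG of YY1 was present in 5 (12.8%, against 1.64%), CCGGAAGTG of GABPA in 1 (2.56%, against 2.25%) and TATAAA in 4 (10.3%, against 15.7%). The letters AGGGGGCGC, a short form of the CTCF core motif, were present in 1 window, that of *Ndufc1* (2.56%, against 1.43%). The motifs searched do not overlap one another in the windows shown. A match is a stretch of letters and not a measured binding site.

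The windows of 3 accessory subunits with the lowest changes in homozygous hearts and of the assembly factor with the highest change are shown, on GRCm38.p6, written 5′ to 3′ along the gene's strand. They lie at chr13:73328433-73328732 (*Ndufs6*, minus strand), chr17:24724374-24724673 (*Ndufb10*, minus strand), chr19:44555393-44555692 (*Ndufb8*, minus strand) and chr4:24897833-24898132 (*Ndufaf4*, plus strand). Capitals mark NRF1 matches and, near the end of the *Ndufs6* window, a YY1 match.
Ndufs6: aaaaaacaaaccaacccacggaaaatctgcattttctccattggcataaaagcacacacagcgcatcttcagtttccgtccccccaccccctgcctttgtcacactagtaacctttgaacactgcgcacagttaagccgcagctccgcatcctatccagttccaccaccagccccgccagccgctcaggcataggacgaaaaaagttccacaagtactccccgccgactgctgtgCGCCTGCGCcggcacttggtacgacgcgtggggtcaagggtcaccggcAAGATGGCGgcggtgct
Ndufb10: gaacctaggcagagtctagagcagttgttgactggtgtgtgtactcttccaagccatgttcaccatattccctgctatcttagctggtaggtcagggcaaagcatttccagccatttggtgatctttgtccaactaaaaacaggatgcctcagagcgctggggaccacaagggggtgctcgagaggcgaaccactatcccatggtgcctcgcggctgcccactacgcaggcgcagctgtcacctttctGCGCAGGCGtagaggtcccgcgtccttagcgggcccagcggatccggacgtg
Ndufb8: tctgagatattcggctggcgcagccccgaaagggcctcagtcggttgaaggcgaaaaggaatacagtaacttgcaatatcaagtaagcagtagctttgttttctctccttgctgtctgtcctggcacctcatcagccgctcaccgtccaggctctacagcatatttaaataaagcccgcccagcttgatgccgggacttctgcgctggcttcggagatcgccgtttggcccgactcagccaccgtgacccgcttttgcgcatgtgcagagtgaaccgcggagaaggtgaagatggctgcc
Ndufaf4: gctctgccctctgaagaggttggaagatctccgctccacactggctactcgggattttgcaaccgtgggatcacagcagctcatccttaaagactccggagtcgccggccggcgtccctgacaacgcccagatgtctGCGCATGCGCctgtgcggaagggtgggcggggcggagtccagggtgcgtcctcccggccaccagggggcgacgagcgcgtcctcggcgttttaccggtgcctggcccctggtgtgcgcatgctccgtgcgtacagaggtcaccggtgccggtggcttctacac
*Ndufs6* and *Ndufb10* held an NRF1 match and *Ndufb8* held no match to any of the 5 motifs. *Ndufaf4* held overlapping NRF1 matches on both strands. *Ndufs6* is also the member that the study followed by quantitative PCR, with the primers below. They enclose 64 bases of 3 annotated *Ndufs6* transcripts and 125 bases of a 4th. By this method the study reports significantly reduced levels in homozygous hearts for its assayed genes of myocardial development and contraction. The forward primer also matches the transcript of the related gene *Ndufs6b*, but the reverse primer has no exact match there.
forward primer: ggggaaaagatcacgcatacc
reverse primer: caaaacgaaccctcctgtagtc

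Expression was deposited as TPM, a transcript abundance per length that sums to nearly the same total in each library, so the reads behind a value are unknown. Changes are differences of log2(TPM + 1) fitted with limma, which understate the changes of low genes. Called means an adjusted p under 0.05 over the 13682 genes that averaged 1 TPM or more, and all 44 members passed this filter. Over all genes, the median log2 change was 0.23 in homozygous against wild-type, 0.08 in homozygous against heterozygous and 0.15 in heterozygous against wild-type hearts, and median-ratio scaling brought these medians to between −0.00 and 0.01. A change minus this median is called the relative change. For classes and lists a median is given on both scales, and under other settings mostly as the relative change. The 46 calls in homozygous against wild type were 26 higher and 20 lower, and after median-ratio scaling they were 39 and 199. The *Ctcf* transcript had 27.0, 28.95 and 34.3 TPM across the wild-type, 33.8, 33.2 and 38.7 TPM across the heterozygous and 38.9, 41.4 and 50.2 TPM across the homozygous libraries, which does not check a genotype that differs by a substitution.

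Libraries differed in composition before any comparison of the members. Markers of cardiomyocytes summed to between 28079 and 33693 TPM in 8 libraries and to 22208 TPM for homozygous replicate 3, so the heart label held in each. In homozygous replicate 3 the 10 thymocyte markers summed to 520 TPM, against 2.42 TPM at most elsewhere. Lung and airway markers summed to 2612 TPM for wild-type replicate 1 and 1104 TPM for heterozygous replicate 1 (50.1 TPM at most elsewhere), and liver markers to 2909 TPM for heterozygous replicate 1 (64.2 TPM at most elsewhere). *Xist*, the RNA of the inactive X chromosome, marked all 3 heterozygous libraries, wild-type replicate 1 and homozygous replicate 1 as female. In bulk tissue, fewer cells of a type and less RNA per cell cannot be told apart, and the part of these libraries in the results was not tested beyond leaving them out.

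Subunits were abundant and assembly factors were not. In wild-type hearts the mean level of a subunit ran from 71.8 TPM (*Ndufa11*) to 794 TPM (*Ndufb8*), with a median of 334 TPM over the 36 genes. The assembly factors ran from 15.9 TPM (*Ndufaf7*) to 38.0 TPM (*Ndufaf2*), with a median of 28.6 TPM over the 7 genes. The classes did not overlap in any library, since the lowest subunit value was 62.4 TPM and the highest assembly factor value was 46.7 TPM. Ordered by wild-type mean, 35 of the 43 pairs of neighbours overlapped in their 3 values, so the exact order is not resolved.

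The most abundant member was *Ndufa4*, with 1323, 1154 and 1177 TPM across the wild-type, 1224, 1181 and 1108 TPM across the heterozygous and 1082, 1168 and 1039 TPM across the homozygous libraries. It is the member of cytochrome c oxidase, and its genotypes overlapped. Among the subunits, *Ndufb8* of the membrane arm was highest, followed by *Ndufb9* of the same arm (mean over the 9 libraries 688 TPM) and *Ndufa12* of the matrix arm (616 TPM). The acyl carrier protein *Ndufab1*, which serves both arms and fatty acid synthesis, had 325, 321 and 376 TPM across the wild-type and 337, 325 and 281 TPM across the homozygous libraries.

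**Figure D1:**
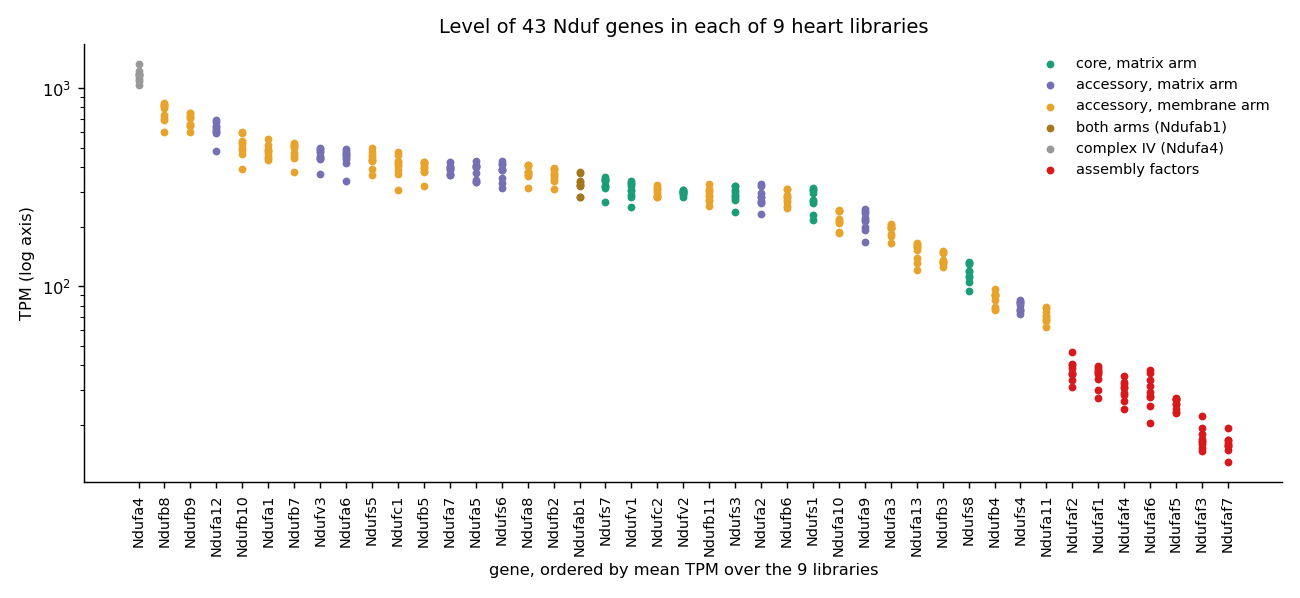
Level of 43 Nduf genes in 9 heart libraries. The horizontal axis orders the genes by mean TPM, the vertical axis gives TPM on a log scale, and each point is 1 library, coloured by class. All assembly factor values, at most 46.7 TPM, sit below all subunit values, at least 62.4 TPM.

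Homozygous hearts were first set against wild-type hearts, to ask whether the mutation altered the transcripts of this enzyme. None of the 44 members was called by limma, against 0.336% of all genes, and 6 had an unadjusted p under 0.05, all of them accessory subunits and all lower (13.6% of members, against 2.16% of all genes lower and 22.9% higher at that p). On the relative scale all 44 members were below the median of all genes, with a median of −0.33 for the 36 subunits and −0.24 for the 7 assembly factors. Of the tested genes in the subunits' range of mean level 81.6% were also below that median, and of those in the assembly factors' range 51.9%. The count of subunits below that median was 36 in 24 of the 25 other settings and 32 under quantile normalization. As deposited, 32 of the 36 subunits and 4 of the 7 assembly factors were below 0, with medians of −0.10 and −0.01. Of all tested genes 18.3% were below 0. The share was 32.7% in the subunits' range of mean level and 14.4% in that of the assembly factors.

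The 6 were *Ndufs6*, *Ndufa5*, *Ndufb6*, *Ndufb8*, *Ndufb10* and *Ndufs5*. *Ndufs6*, a zinc-binding subunit of the matrix arm, had 413, 388 and 428 TPM across the wild-type, 388, 387 and 412 TPM across the heterozygous and 351, 331 and 313 TPM across the homozygous libraries. Homozygous values lay below all 6 others. The log2 change was −0.31 (SE 0.09, limma adjusted p 0.113), the smallest p of the members. It was −0.56 after median-ratio scaling (adjusted p 0.0160), and over 25 other settings the adjusted p ran from 0.0160 to 0.335. Of the gene's 31-base words, 15.1% also occur in another gene, most of all *Ndufs6b*, and *Mrpl36* overlaps it on the opposite strand.

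*Ndufa5*, a neighbour in the matrix arm, had 408, 398 and 402 TPM across the wild-type, 431, 399 and 373 TPM across the heterozygous and 335, 336 and 346 TPM across the homozygous libraries. Here the 3 homozygous values were close together and below the other genotypes, and homozygous replicate 3 was the highest of them. The log2 change was −0.25 (SE 0.08, limma adjusted p 0.134).

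In the membrane arm, *Ndufb8* had 825, 735 and 823 TPM across the wild-type, 811, 794 and 835 TPM across the heterozygous and 693, 704 and 602 TPM across the homozygous libraries. *Ndufb10* had 542, 499 and 600.05 TPM, then 534, 524 and 593 TPM, then 485, 466 and 390.5 TPM in the same order. For these subunits heterozygous and wild-type libraries overlapped, homozygous hearts were below both without overlap, and homozygous replicate 3 was lowest. The log2 changes were −0.25 (SE 0.09, limma adjusted p 0.145) for *Ndufb8* and −0.29 (SE 0.11, adjusted p 0.155) for *Ndufb10*.

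*Ndufb6* of the same arm had values in the order of the genotypes. Its levels were 310.5, 288 and 309.5 TPM across the wild-type, 282, 280.6 and 274 TPM across the heterozygous and 265, 255 and 248 TPM across the homozygous libraries, with no overlap between any of the 3 genotypes. The log2 change in homozygous against wild-type hearts was −0.24 (SE 0.08, limma adjusted p 0.135). It was −0.12 in heterozygous against wild type (limma adjusted p 0.672) and −0.12 in homozygous against heterozygous (adjusted p 0.776). The share of all genes with this order was not counted. Of the 31-base words of *Ndufb6*, 34.4% are shared, mainly with *Smim27*, which overlaps it on the opposite strand and is not listed at 1 TPM or more. *Ndufs5*, a subunit facing the intermembrane space that was named after its values were seen, had 474, 427 and 499 TPM across the wild-type and 392, 431 and 366 TPM across the homozygous libraries, which overlapped (log2 change −0.23, SE 0.10, limma adjusted p 0.174).

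**Figure D2:**
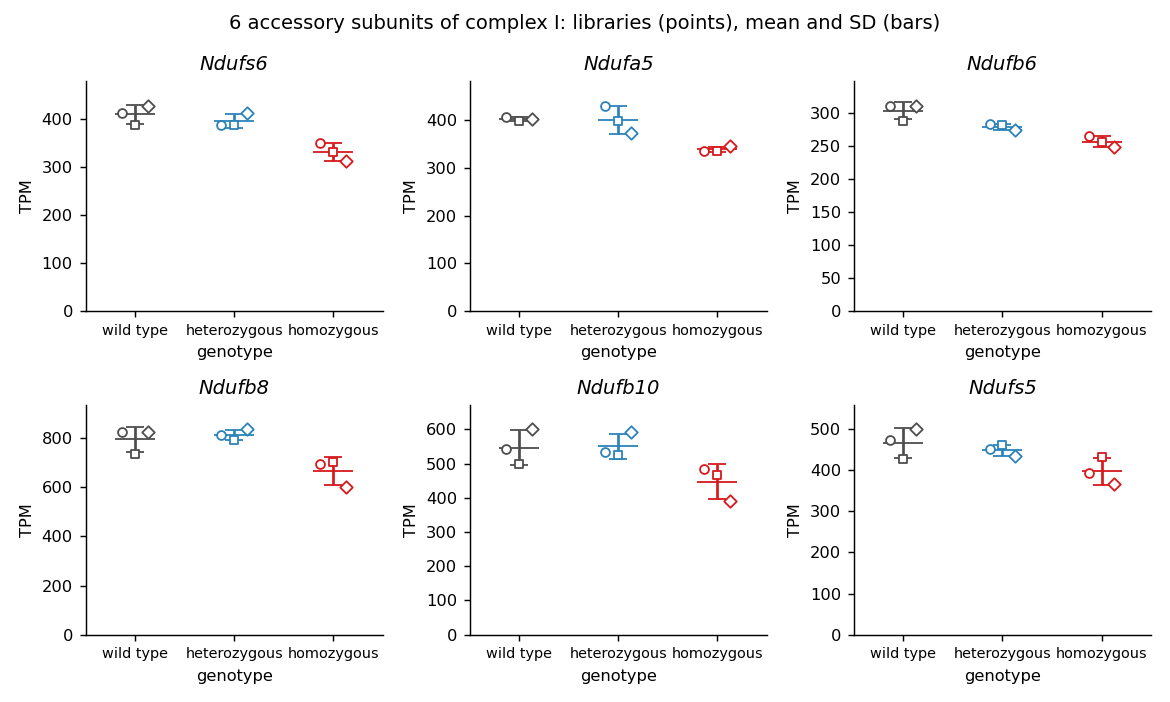
Levels of the 6 accessory subunits with an unadjusted p under 0.05 in homozygous against wild-type hearts. Each panel gives TPM from 0 on the vertical axis by genotype, with libraries 1, 2 and 3 as circle, square and diamond and the mean with SD (n = 3) as bars. Homozygous libraries lie below wild-type libraries without overlap except for *Ndufs5*.

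Counted without a model, 8 subunits had homozygous values all below the wild-type values as deposited. This is 22.2% of the subunits, against 2.38% of all genes tested, and all 8 were accessory subunits, 4 of each arm. *Ndufa12*, in the matrix arm, was among them with 623, 608 and 646 TPM across the wild-type and 594, 598 and 483 TPM across the homozygous libraries. Every assembly factor and every core subunit overlapped between these genotypes. Abundance moves with this count. Among the 1220 tested genes in the same range of mean level as the subunits (70.7 to 758 TPM), 5.74% were without overlap and lower, 4.84% were lower at an unadjusted p under 0.05, and the median relative change was −0.15.

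After median-ratio scaling, 11 members were called and lower, 4 accessory subunits of the matrix arm and 7 of the membrane arm, against 1.45% of all genes called lower. They were *Ndufs6*, *Ndufa12*, *Ndufs4*, *Ndufv3*, *Ndufb10*, *Ndufb8*, *Ndufb6*, *Ndufb7*, *Ndufs5*, *Ndufa8* and *Ndufa11*. With limma on this scale none of the 7 core subunits and none of the 7 assembly factors was called. At an unadjusted limma p under 0.05 there were 5 core subunits, 3 assembly factors and 28 of the 29 accessory subunits. Over all genes, 2549 of the 13677 tested on this scale were at that p, in either direction. Correction for GC content and transcript length gave 4 called members, all lower (against 0.828% of all genes called lower). With arrayWeights 4 members were called (against 37.0% of all genes called), of which 3 were lower (against 1.88%). The number of called members thus depends on the scaling of the libraries and on their weights.

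**Figure D3:**
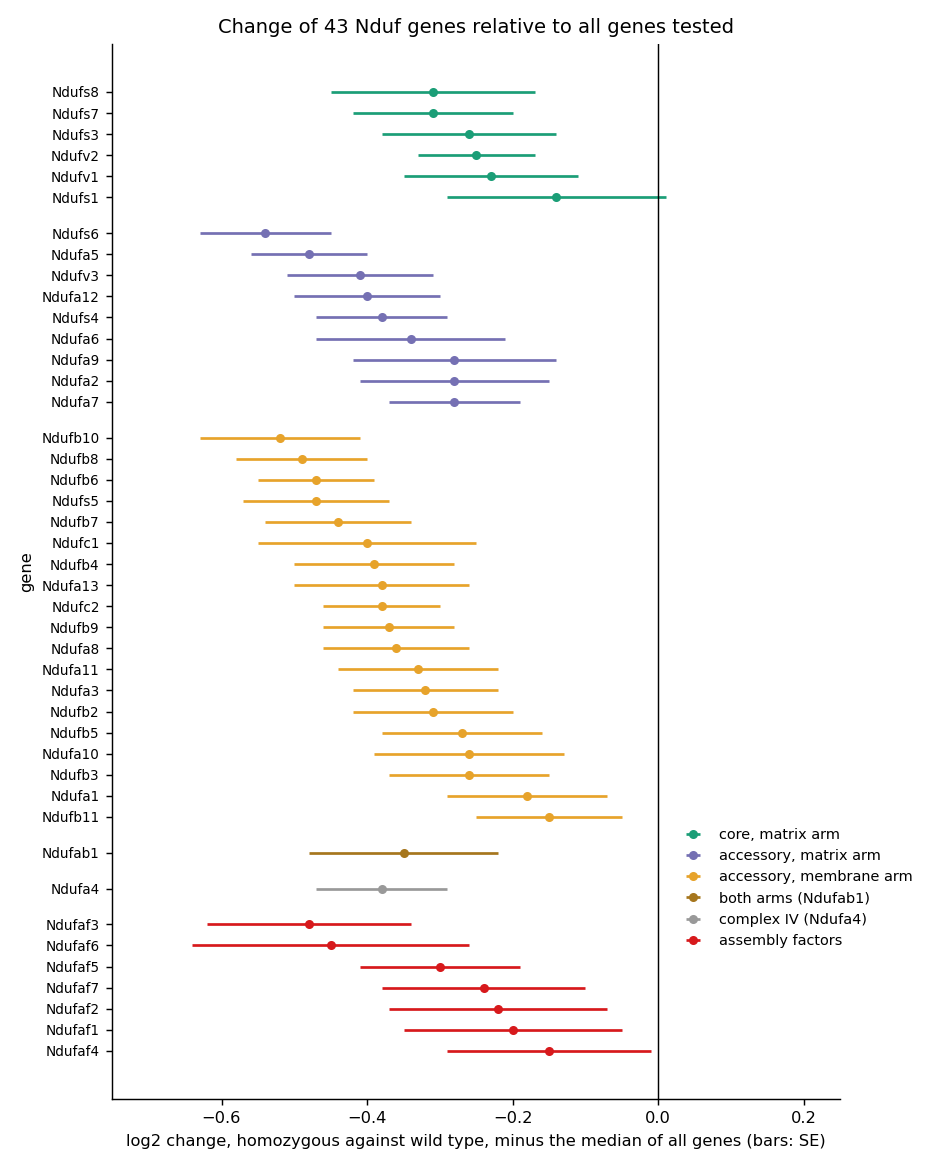
Change of 43 Nduf genes in homozygous against wild-type hearts. The horizontal axis is the log2 change minus the median of all genes, points are genes grouped and coloured by class, and bars are the standard error of the limma fit. All 43 points lie below 0, from −0.54 (*Ndufs6*) to −0.14 (*Ndufs1*).

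The 7 core subunits of the matrix arm had a median log2 change of −0.02 as deposited and −0.25 on the relative scale, against −0.14 and −0.37 for the 29 accessory subunits. *Ndufv1*, which binds NADH and the flavin, had 283, 289 and 328 TPM across the wild-type and 321, 332 and 251 TPM across the homozygous libraries. Homozygous replicates 1 and 2 lay above its wild-type mean and homozygous replicate 3 lay below every wild-type library.

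*Ndufs1*, which carries several iron-sulphur clusters, had 217, 262 and 313 TPM across the wild-type and 306, 307 and 229.7 TPM across the homozygous libraries, again with homozygous replicate 3 lowest of its genotype. *Ndufv2*, with an iron-sulphur cluster next to the flavin, varied little, with 298, 292 and 306 TPM across the wild-type and 307, 298 and 281 TPM across the homozygous libraries. The log2 changes were −0.03 (*Ndufs3*), −0.08 (*Ndufs7*, which holds the cluster nearest to ubiquinone) and −0.08 (*Ndufs8*, another carrier of clusters). For these 6 core subunits the limma adjusted p ran from 0.624 to 0.993.

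Homozygous replicate 3 was the lowest library for 29 of the 36 subunits, 6 of the 7 core subunits among them, but for only 1 of the 7 assembly factors. Summed over the subunits, the level was 12573, 11928 and 13181 TPM across the wild-type, 12569, 12569 and 13165 TPM across the heterozygous and 11988, 12536 and 10339 TPM across the homozygous libraries. Only homozygous replicate 3 lay outside the wild-type range, and it is the library with thymocyte transcripts and the lowest cardiomyocyte sum. Without it, 20 of the 36 subunits were below 0 as deposited, while the median relative change was −0.31 and all 36 were still below the median of all genes. Without it and wild-type replicate 1 the relative medians were −0.25 for subunits and −0.37 for assembly factors.

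The balance of accessory to core subunits was also read per library. The summed level of the 29 accessory subunits was 5.44, 4.90 and 4.77 times that of the 7 core subunits in wild-type, 4.88, 4.89 and 4.73 times in heterozygous and 4.41, 4.37 and 4.76 times in homozygous libraries. The homozygous ratios lay below the wild-type ratios, only just so in replicate 3, and the heterozygous ratios overlapped both groups. This ratio does not depend on the scaling of a library.

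For the assembly factors the genotypes overlapped in every gene between homozygous and wild-type hearts. *Ndufaf3* and *Ndufaf4* act together on the ubiquinone-binding module. *Ndufaf3* had 19.3, 16.4 and 22.3 TPM across the wild-type and 14.8, 18.0 and 15.3 TPM across the homozygous libraries (log2 change −0.25, SE 0.14, limma adjusted p 0.266), the lowest change of the class. *Ndufaf4* had 24.2, 26.6 and 35.2 TPM against 32.8, 29.0 and 28.3 TPM, and its log2 change of 0.08 (SE 0.14) was the highest.

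*Ndufaf6*, needed for an early membrane intermediate, had 33.8, 29.2 and 37.8 TPM across the wild-type, 28.1, 27.6 and 24.9 TPM across the heterozygous and 31.3, 20.4 and 36.8 TPM across the homozygous libraries, the widest homozygous spread of the class. *Ndufaf1*, part of the complex that builds the membrane arm, had a log2 change of 0.03. *Ndufaf2*, a relative of the subunit *Ndufa12* that holds its place during assembly, had 0.01, but 65.1% of its 31-base words occur in other genes, so its level is uncertain. Words were counted on either strand. The gene sharing most of them, *B230220B15Rik*, overlaps *Ndufaf2* on the opposite strand and is not listed at 1 TPM or more. *Ndufaf5*, which modifies *Ndufs7*, had −0.07, and *Ndufaf7*, a methyltransferase, had −0.01. Over the 7 genes the limma adjusted p ran from 0.266 to 0.977.

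The assembly factor sum was 177, 190 and 222 TPM across the wild-type, 196, 182 and 193 TPM across the heterozygous and 193, 184 and 191 TPM across the homozygous libraries. Subunits exceeded this sum by 71.1, 62.7 and 59.4 times in wild-type, 64.2, 69.0 and 68.4 times in heterozygous and 62.1, 68.1 and 54.2 times in homozygous libraries, so the ratio of the classes overlapped among genotypes. The relative medians of −0.33 and −0.24 thus differ by less than the settings move them. They were equal at −0.31 without homozygous replicate 3, and under quantile normalization the order turned, with −0.14 for subunits and −0.27 for assembly factors. Genes in the assembly factors' range of mean level (16.0 to 37.8 TPM, 3000 genes) had a median relative change of −0.01.

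**Figure D4:**
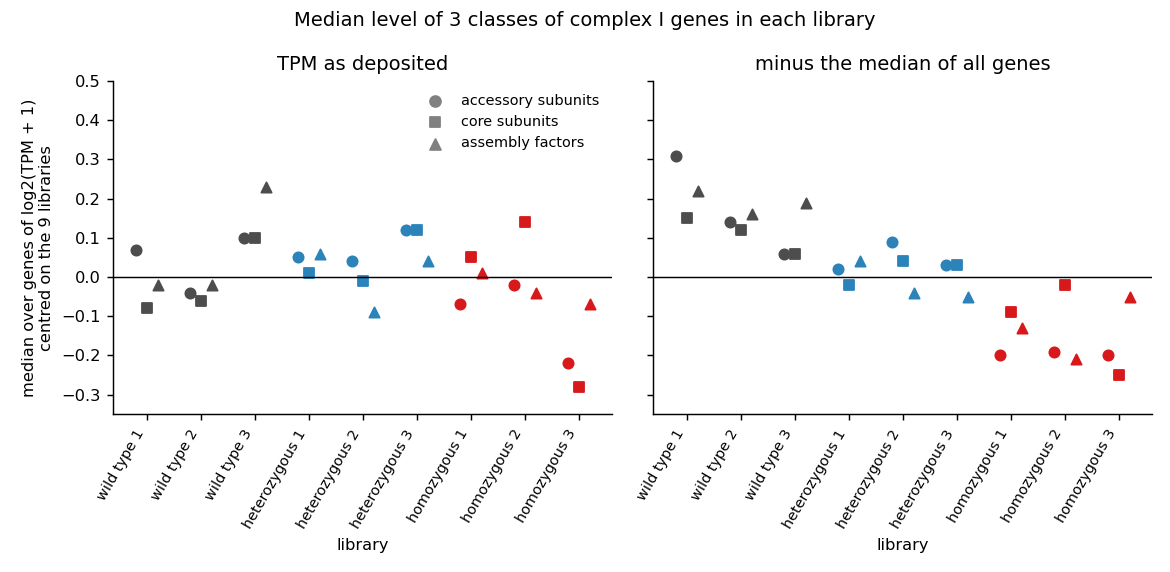
Median level of 29 accessory subunits, 7 core subunits and 7 assembly factors in each of 9 libraries. The vertical axis is the median over genes of log2(TPM + 1) centred on the 9 libraries, as deposited (left) and minus the median of all genes in that library (right), and colours mark the genotypes. As deposited, subunits are lowest in homozygous replicate 3 (accessory −0.22, core −0.28), while on the right the homozygous libraries lie at or below −0.02 and the wild-type libraries at or above 0.06.

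The 2 members on the X chromosome belong to the membrane arm. *Ndufb11* had 271, 269 and 284 TPM across the wild-type, 287, 307 and 308 TPM across the heterozygous and 297.5, 326 and 255.3 TPM across the homozygous libraries. *Ndufa1* had 481, 441 and 516 TPM, then 434, 482 and 466 TPM, then 491, 555 and 446 TPM in that order. Their log2 changes in homozygous against wild type were 0.08 and 0.05, the highest of the accessory subunits, followed by −0.03 for *Ndufb3* of the same arm. The SE of the X-linked changes was 0.10 and 0.11, homozygous and wild-type values overlapped in both genes, and their difference from the other subunits was not tested. On the relative scale they were −0.15 and −0.18, and under quantile normalization 0.06 and 0.08. Sex was unequal between the groups, and with *Xist* as a covariate the median relative change of the 36 subunits was −0.34.

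Homozygous hearts were then compared with heterozygous hearts, which addressed whether a second mutant allele altered the levels further. No member was called by limma, against 0.0439% of all genes, and 6 had an unadjusted p under 0.05, all lower (13.6% of members, against 2.32% of all genes). They were *Ndufs6*, *Ndufa5*, *Ndufb8*, *Ndufb10*, *Ndufa12* and *Ndufb7*, with log2 changes from −0.30 to −0.24. For 12 subunits, all accessory, the homozygous values lay below all heterozygous values (33.3%, against 3.85% of all genes). The median relative change was −0.20 for subunits and −0.10 for assembly factors, and as deposited the medians were −0.12 and −0.03. The same homozygous libraries enter this comparison and the one with wild type, so the lists of genes are not independent.

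Between heterozygous and wild-type hearts the members differed little. No member was called by limma, against 0.0146% of all genes. The count at an unadjusted p under 0.05 was 0, against 0.577% of all genes lower and 6.29% higher at that p. Log2 changes ran from −0.31 (*Ndufaf6*) to 0.14 (*Ndufaf4*), with medians of 0.03 for subunits and 0.00 for assembly factors, or −0.12 and −0.14 on the relative scale. On that scale all 44 members were below the median of all genes, while as deposited 29 of the 44 were above 0. The relative subunit median was −0.04 without a filter on low values, with 27 of 36 below the median of all genes, and −0.03 under quantile normalization, with 24. Heterozygous values lay below all wild-type values for *Ndufaf6* and *Ndufb6* (4.55% of members, against 1.03% of all genes) and above them for *Ndufb11* (against 12.8%). The smallest limma adjusted p was 0.672.

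Other parts of the respiratory chain were placed beside the members. In homozygous against wild-type hearts the median relative change was −0.24 for the 4 genes of complex II, −0.33 for 9 nuclear genes of complex III, −0.35 for 13 of complex IV and −0.31 for 16 of ATP synthase, against −0.33 for complex I subunits. As deposited the medians were −0.01, −0.10, −0.12 and −0.07, against −0.10 for complex I subunits. Under quantile normalization the relative medians were −0.04, −0.08, −0.09 and −0.04, against −0.14. No gene of these lists was called by limma, against 0.336% of all genes. In the order given, 0, 1, 2 and 3 of them had an unadjusted p under 0.05, each lower. These are 0.0%, 11.1%, 15.4% and 18.8% of the lists, against 2.16% of all genes lower at that p. *Uqcrh*, the hinge protein of complex III, had 1444, 1379 and 1418 TPM across the wild-type, 1278, 1289 and 1236 TPM across the heterozygous and 1179, 1137 and 1107 TPM across the homozygous libraries (log2 change −0.31, SE 0.07, limma adjusted p 0.0970). *Atp5k*, a small subunit of the ATP synthase membrane part, had 839, 740.1 and 837 TPM across the wild-type and 692, 656 and 585 TPM across the homozygous libraries (log2 change −0.32, SE 0.09, limma adjusted p 0.115). As with *Ndufs6*, the homozygous libraries lay below the wild-type libraries for each. The study gives *Ndufs6*, *Uqcrh* and *Atp5k* as downregulated in homozygous hearts, from a DESeq2 comparison of counts. It required an absolute fold change above 2 and set a threshold on the adjusted p. Here limma on TPM as deposited called none of them, and their changes were smaller than that fold change. After median-ratio scaling *Ndufs6* was called (log2 change −0.56, limma adjusted p 0.0160), with a change still smaller than that fold change.

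Complex I genes outside the Nduf names were also examined. The 7 complex I genes of mitochondrial DNA summed to 64699, 72678 and 61331 TPM across the wild-type, 55711, 62559 and 59050 TPM across the heterozygous and 54894, 55981 and 70951 TPM across the homozygous libraries. Homozygous replicate 3, lowest for the nuclear subunits, was highest of its genotype here. The median relative change was −0.41, with all 7 below the median of all genes, 0 of 7 called and 0 at an unadjusted limma p under 0.05. As deposited the median was −0.18, with 6 of the 7 below 0 (85.7%, against 18.3% of all genes). Under quantile normalization the relative median turned to 0.03, with 3 of the 7 below the median of all genes. The 9 complex I assembly factors with other names had a median relative change of −0.15, with 6 below the median of all genes. As deposited their median was 0.09, with 1 of the 9 below 0 (11.1%, against 18.3% of all genes). None was called by limma, and 2 at an unadjusted p under 0.05 were higher (22.2%, against 22.9% of all genes). The 9 ran from *Ecsit* (log2 change −0.03, SE 0.14) to *Tmem126b* (0.52, SE 0.19), which both belong to the complex that builds the membrane arm. *Tmem126b* had 11.3, 9.36 and 17.6 TPM across the wild-type and 18.4, 18.9 and 17.0 TPM across the homozygous libraries, which overlapped (limma adjusted p 0.148).

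The list of 10 outer membrane, matrix and biogenesis genes, with *Vdac1*, *Cs*, *Tfam* and *Nrf1* among them, had a median relative change of −0.20 and of 0.04 as deposited. It held 2 genes at an unadjusted p under 0.05, both higher (20.0%, against 22.9% of all genes), and none called by limma. For *Ndufaf8*, RefSeq pairs the older symbol 1810043H04Rik, which had 30.2, 34.4 and 36.1 TPM across the wild-type and 28.3, 44.8 and 30.8 TPM across the homozygous libraries (log2 change 0.02, SE 0.17), a level within the range of the other assembly factors. It does not follow the naming pattern and is not counted among the members.

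**Figure D5:**
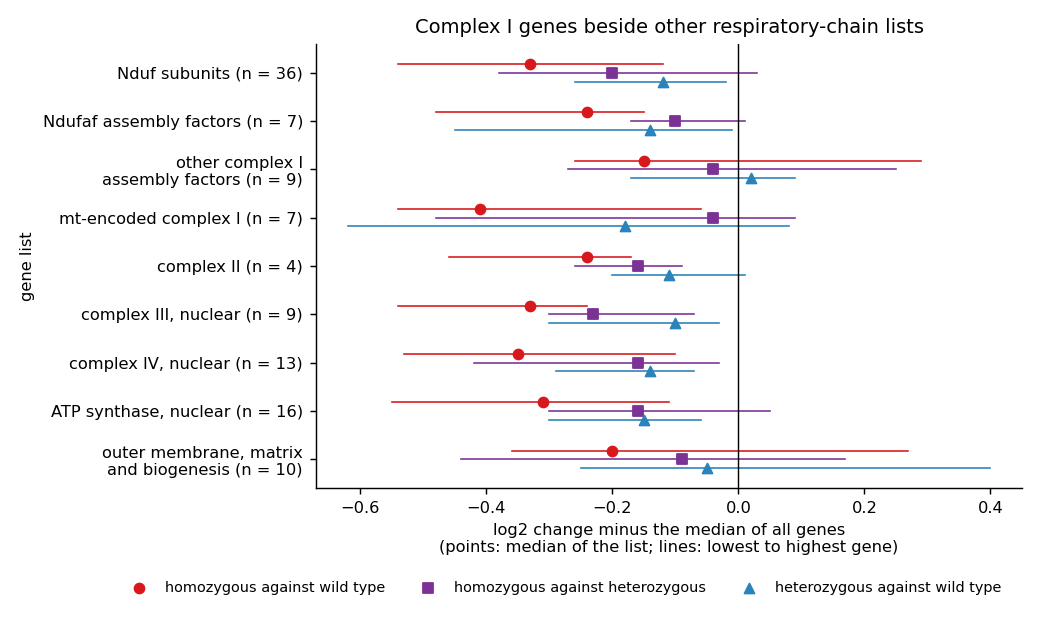
Complex I genes beside other lists of respiratory-chain genes. The horizontal axis is the log2 change minus the median of all genes, points are the median of a list in each of 3 comparisons, and lines run from its lowest to its highest gene. In homozygous against wild type the medians run from −0.41 to −0.15, with −0.33 for Nduf subunits and −0.24 for Ndufaf assembly factors.

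Members shared features that the naming pattern does not use. Their median transcript was 692 bases long, against 1354 bases for all genes tested, and 33 of the 36 subunits but 4 of the 7 assembly factors were under 1000 bases. All tested genes under 1000 bases had a median relative change of −0.04. Across the 44 members, which share the 9 libraries, the log2 change in homozygous against wild type had a Pearson r of 0.29 with log2 transcript length, −0.35 with GC content and −0.19 with mean level. Over the 36 subunits alone these were 0.13, −0.22 and −0.15, and over 13286 tested genes 0.11, −0.01 and −0.18. More than 10% of the 31-base words were shared with other genes in 14 members, and 14 members overlap a gene listed at 1 TPM or more, so how their reads were divided is uncertain. Counting is not stated to use strand.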

How the data were processed

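RNA sequencing of heart tissue was measured in 9 libraries, which were grouped by the genotype in their titles. The authors deposited 1 table of TPM, obtained after trimming with Trim Galore, alignment to mm10 with STAR and quantification with RSEM, as given in the study's methods and processing notes. The annotation release and strand setting are not given in the sources used here. TPM keeps no depth, so the spread between 3 libraries is the measure of precision. The 26 symbols turned into dates were left out. Values were analysed as log2(TPM + 1), with a mean of at least 1 TPM, by limma (v3.58.1, lmFit and eBayes with trend, 1 fit to all 9 libraries, two-sided, Benjamini-Hochberg adjustment over all genes) in R (v4.3.3). The study's DESeq2 needs counts and was not run. The procedure was tested on simulated data. Word sharing, length and GC content came from GENCODE transcripts of the same build.

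The naming pattern, the gene lists and the tests were chosen with earlier results of these data known, so lists are described by counts and medians without a test. Named were 6 of the 7 core subunits (the values of the other one are not reported here, though it counts in every class total), the assembly factors, the 5 accessory subunits with the lowest and 3 with the highest change in homozygous against wild type, the 3 most abundant subunits and the least abundant member, *Ndufs6*, X-linked members, *Ndufab1* and *Ndufa4*; of other lists *Uqcrh*, *Atp5k* and the assembly factors with the lowest and highest change. *Ndufs5* and the other subunits named with a count fell outside this rule and were chosen after their values were seen. Values were recomputed under 25 other settings.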

Additional observations from a re-analysis of the deposited data

How the results depend on the processing

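Under 25 other settings, 875 values of 35 named results kept direction and side of the threshold in 858 cases, 12 passed the threshold in addition, and 5 turned. Those that turned relative to all genes were, in homozygous against wild type, *Ndufs1* (0.05), *Ndufb11* (0.06) and *Ndufa1* (0.08), and in heterozygous against wild type *Ndufb10* (0.00) and *Ndufb8* (0.02), all under quantile normalization. The cause was not tested.

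In homozygous against wild type, called members numbered 11 after median-ratio scaling, 4 after correction for GC content and length, 4 with arrayWeights and 1 after rescaling without mitochondrially encoded and haemoglobin genes. All genes called were then 238, 134, 5068 and 77, and 71 under quantile normalization, 22 without a filter, 11 with only the compared groups, 17 with a replicate block and 11 without wild-type replicate 1, heterozygous replicate 1 and homozygous replicate 3, a setting chosen after the data were seen. Leaving out 1 library gave 13 to 2170 (the most without wild-type replicate 3). The subunit median was −0.22 without a filter and −0.14 under quantile normalization. The assembly factor median was −0.17 with a pseudocount of 5, −0.12 without a filter, −0.37 without those 3 libraries or without 2 of them (wild-type replicate 1 and homozygous replicate 3), and −0.31 to −0.21 leaving out 1 library.

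In homozygous against heterozygous, the 6 calls over all genes became 2 with a pseudocount of 5 or without a filter, 13, 11, 10 and 43 with median-ratio, quantile, rescaled and weighted data, 0 with only the compared groups or with *Xist* (limma, 1095 and 453 genes at an unadjusted p under 0.05), 1 with a replicate block, and 1 to 6 leaving out 1 library. The subunit median was −0.16, −0.10, −0.14 and −0.15 without a filter, with quantile data, with *Xist* and without the 2 libraries, and −0.25 to −0.15 leaving out 1. The assembly factor median was −0.06 without a filter, −0.15 without the 2 libraries, and −0.15 to −0.05 leaving out 1 (lowest without homozygous replicate 3, highest without homozygous replicate 1).

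In heterozygous against wild type, the 2 calls became 1 with a pseudocount of 0.1, a mean of at least 5 TPM, a replicate block or *Xist*, 5 with median-ratio scaling, GC and length correction or without the 3 libraries, 4 with quantile data or arrayWeights, 0 with only the compared groups (limma, 1024 genes at an unadjusted p under 0.05), and 1 to 6 leaving out 1 library. The subunit median was −0.03 with quantile data, −0.07 with a pseudocount of 5, −0.04 without a filter, −0.20 with *Xist*, −0.06 and −0.07 without the 3 or the 2 libraries, and −0.16 to −0.07 leaving out 1 (−0.07 without wild-type replicate 1). The assembly factor median was −0.10, −0.07, −0.27 and −0.22 with a pseudocount of 5, without a filter and without the 3 or the 2 libraries, and −0.22 to −0.12 leaving out 1.

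Replicate numbers are shared by the groups, but same-numbered libraries correlated in their deviations by −0.0306 to 0.359, not every library correlated best with its own number, and nothing says that a number marks a litter or day. With the replicate block limma called no member, and 5, 4 and 0 of the 44 had an unadjusted p under 0.05 in the 3 comparisons, in the order above. Of the 13682 genes tested, limma then called 17, 1 and 1, and 3132, 922 and 851 had an unadjusted p under 0.05, in either direction.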
